A study of Mus musculus with 16 samples.

Results

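Chemokines are small secreted proteins that direct the movement of leukocytes and other cells, and their genes were followed here in FACS-isolated muscle stem cells (MuSCs). The members were the genes of the estimated count table whose symbol is Ccl, Cxcl or Cx3cl followed by a number and at most 1 letter. There were 38 of them among the 24411 genes of the table, 24 Ccl, 13 Cxcl and 1 Cx3cl. The study deleted TRF2, a protein that binds telomeric repeats and is encoded by Terf2, in MuSCs by crossing TRF2-floxed mice with mice that carry a tamoxifen-inducible Cre driven by Pax7, so that deletion was limited to Pax7-expressing cells (TRF2 MuSC-cKO, cKO below). The groups were control (genotype recorded as Wildtype) and cKO (TRF2 knockout) MuSCs, each uninjured or 3 days post injury (3 DPI) with 10 µl of notexin, a snake toxin that destroys myofibers, injected into the tibialis anterior muscle. Each of the 4 groups had 4 libraries. By the methods, mice were on a C57BL/6 background and tamoxifen was begun at 8 to 10 weeks of age. Mice of 3 months are named for marker expression in sorted MuSCs of both states, without saying whether these were the same libraries, and whether the controls carried Cre or received tamoxifen is not given in the sources used here.

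Chemokines are classed by the spacing of their first cysteines into CC (Ccl), CXC (Cxcl) and CX3C (Cx3cl) ligands, and they act through G protein-coupled receptors on the cells that they attract. Inflammatory chemokines are induced by signals such as nuclear factor κB and interferon-γ, and homeostatic chemokines are made at a steady level. In injured muscle, neutrophils and then monocytes and macrophages are recruited from the blood, and both leukocytes and resident muscle cells can make chemokines. Many chemokine genes lie side by side in clusters. Proteins of the family share a fold, but Cx3cl1 and Cxcl16 are also made as transmembrane proteins from which the chemokine part can be shed.

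Depth and background were as follows. Library totals ran from 620506 to 1351130 estimated counts. One library stood apart, cKO 3 DPI replicate 3, which had counts for 15385 genes against 19993 to 21876 in the other 15. Calls between groups that changed without this library are also given without it, while means and sums include it. Background was the level of 1488 genes of odorant, pheromone, taste and trace amine receptors, most of which were assumed to be silent in muscle. Its 99th percentile was 10.77 to 21.54 CPM (a gene's count scaled to a common library total) in those 15 libraries and 52.7 CPM in cKO 3 DPI replicate 3. CPM values were scaled by the trimmed mean of M-values over all 16 libraries. Terf2 was at 71.5, 94.2, 64.6 and 70.8 CPM in uninjured control libraries and at 49.6, 46.0, 58.4 and 27.0 CPM in uninjured cKO libraries, which did not overlap, with a log2 fold change of -0.62 ± 0.27 (SE) and an adjusted p of 0.199. At 3 DPI, Terf2 was at 34.0 to 49.5 CPM in control libraries and 20.3 to 82.2 CPM in the libraries labelled cKO, a log2 fold change of 0.44 ± 0.42 (SE, adjusted p = 0.755), so the count did not separate the genotypes at 3 DPI, where cKO below means the libraries so labelled. The MuSC markers were present in all groups, Pax7 at 1199 ± 309 CPM in uninjured control, 765 ± 78.7 in uninjured cKO, 153 ± 30.6 in control 3 DPI and 79.0 ± 45.3 in cKO 3 DPI libraries (mean ± SD, n = 4).

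Sequences upstream of 3 chemokine genes are shown because 2 of the genes, Cxcl1 and Cxcl2, lie 10.8 kb apart on chromosome 5 and share a κB motif, with Cxcl2 but not Cxcl1 called higher after injury, and because the third, Cxcl10, holds all 3 motifs searched. Each is the 250 bases before the start of transcription, from RefSeq on GRCm38.p6, read 5′ to 3′ on the strand of the gene. Capitals mark the motifs.

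Cxcl1, chr5:90890995-90891244, plus strand: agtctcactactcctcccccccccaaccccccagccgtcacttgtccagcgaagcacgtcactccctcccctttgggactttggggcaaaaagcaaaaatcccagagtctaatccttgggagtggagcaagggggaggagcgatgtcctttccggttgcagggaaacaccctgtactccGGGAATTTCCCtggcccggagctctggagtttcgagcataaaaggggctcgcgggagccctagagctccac

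Cxcl2, chr5:90903649-90903898, plus strand: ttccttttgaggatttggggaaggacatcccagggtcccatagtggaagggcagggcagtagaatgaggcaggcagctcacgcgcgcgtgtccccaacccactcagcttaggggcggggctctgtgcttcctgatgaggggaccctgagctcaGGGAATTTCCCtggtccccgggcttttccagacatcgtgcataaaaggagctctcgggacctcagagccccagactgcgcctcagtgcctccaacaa

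Cxcl10, chr5:92348890-92349139, minus strand: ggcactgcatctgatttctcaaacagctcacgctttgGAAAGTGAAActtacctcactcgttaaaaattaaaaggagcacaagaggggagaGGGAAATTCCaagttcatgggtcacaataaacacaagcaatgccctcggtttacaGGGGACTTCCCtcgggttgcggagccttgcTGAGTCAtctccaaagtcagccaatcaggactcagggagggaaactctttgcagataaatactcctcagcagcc

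The capitals in Cxcl1 and Cxcl2 are the κB motif, with overlapping matches joined, and both stretches read GGGAATTTCCC. In Cxcl10 the capitals are, in order, an interferon-stimulated response element (GAAA, any 2 bases, GAAA), 2 κB motifs and an AP-1 motif (TGANTCA). Motifs were searched on both strands from 250 bases before to 50 bases after the start, in 32 promoters of 26 of the 38 chemokine genes and in 32817 promoters in all. The κB motif was in 8 of the 32 promoters (1 each of Ccl1, Ccl9, Ccl20, Ccl27a, Cxcl1, Cxcl2, Cxcl3 and Cxcl10) and in 8.46% of all promoters. The response element was in 3 of the 32 (Ccl19, Cxcl10 and Cxcl14) and in 3.43% of all, and the AP-1 motif was in 7 of the 32, from 6 genes (Ccl9, Ccl27a, Ccl27b, Ccl28, Cxcl9 and Cxcl10), and in 7.81%. A match is a description of the letters and not of binding. Of the genes with a κB motif, Ccl1, Ccl20 and Cxcl3 were above background in no group.

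Of the 38 chemokine genes, 18 were above background in at least 1 group, meaning at least 3 counts and above the 99th percentile of the receptor genes in at least 3 of 4 libraries. By the same rule, 7 of the 1488 receptor genes passed. Cxcl12, Cxcl1 and Cxcl14 were above background in all 4 groups. Uninjured control MuSCs had 7 (Ccl19, Ccl21b, Ccl27a, Cx3cl1, Cxcl1, Cxcl12 and Cxcl14), uninjured cKO MuSCs had 5 (Ccl22, Cx3cl1, Cxcl1, Cxcl12 and Cxcl14), control MuSCs at 3 DPI had 15 and cKO MuSCs at 3 DPI had 10. The 15 were Ccl2, Ccl3, Ccl4, Ccl6, Ccl7, Ccl9, Ccl27a, Cx3cl1, Cxcl1, Cxcl2, Cxcl9, Cxcl10, Cxcl12, Cxcl14 and Cxcl16, and the 10 were these without Ccl4, Ccl27a, Cx3cl1, Cxcl9 and Cxcl10. The 10 include cKO 3 DPI replicate 3, in which the higher limit left 5 genes above background, against 13 or 14 in each of the other 3 libraries of the group. In those 3 the limit was 16.93 to 21.54 CPM, against 11.1 to 14.98 in control 3 DPI libraries. Uninjured, it was 16.18 to 18.53 in cKO and 10.77 to 17.15 in control. Ccl27a passed in control 3 DPI at a mean of 22.3 CPM and not in cKO 3 DPI at 29.7. The numbers above background therefore do not compare the genotypes.

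The summed level of the 38 genes was 326 to 416 CPM in uninjured control libraries (median 368), 322 to 476 in uninjured cKO (374.2), 1001 to 1585 in control 3 DPI (1332) and 817 to 1390 in cKO 3 DPI libraries (1088.5). The ranges of uninjured and 3 DPI libraries did not overlap in either genotype, and those of control and cKO overlapped in both states. Cxcl12 made up 22.9% of the summed mean CPM in uninjured control and 26.5% in uninjured cKO MuSCs, more than any other member. At 3 DPI Cxcl2 led, with 17.9% in control and 18.3% in cKO MuSCs.

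**Figure D1:**
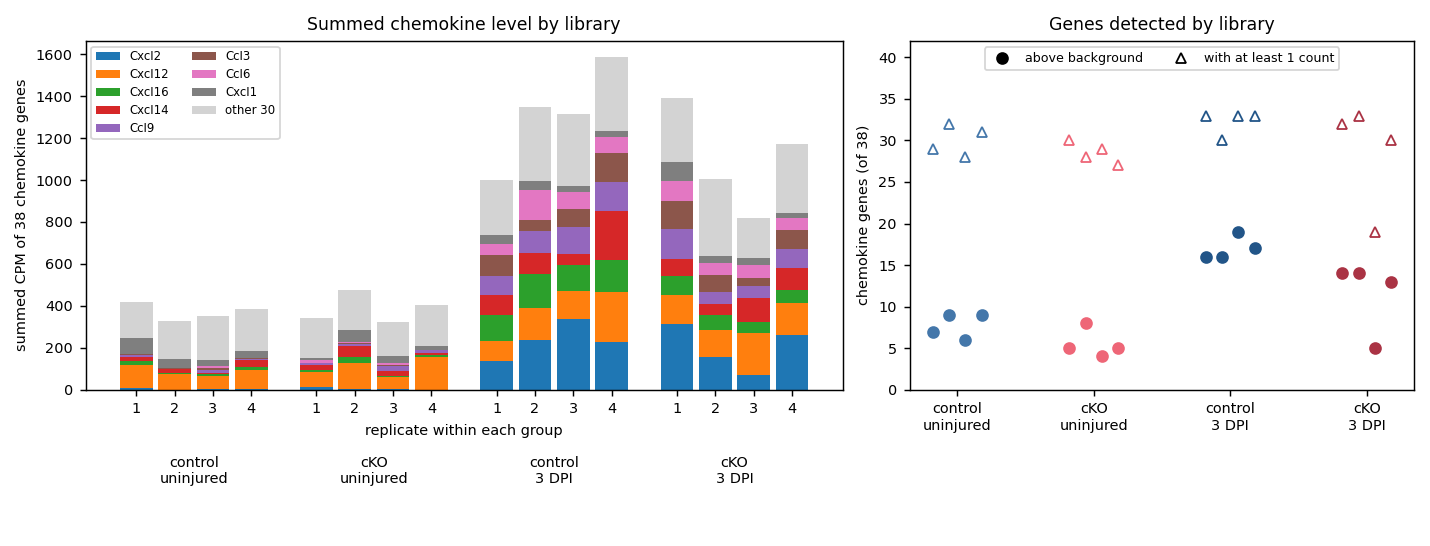
Left, summed CPM of the 38 chemokine genes in each library (stacked bars, replicates 1 to 4 of each group), with the 8 most abundant genes in colour and the other 30 in grey. Right, number of chemokine genes with at least 1 count (triangles) and above background (filled circles) in each library. The 8 libraries at 3 DPI sit at 817 to 1585 CPM, all above the 8 uninjured libraries at 322 to 476 CPM.

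Levels of different genes were compared per transcript length, as TPM derived from the second deposited table, a unit that sums to the same total in every library. In uninjured control MuSCs, Cxcl1 was at 117 ± 58.4 TPM, Ccl27a at 85.7 ± 26.2, Ccl19 at 83.7 ± 38.9 and Cxcl12 at 52.6 ± 10.9 (mean ± SD, n = 4). The intervals of 1 SD around neighbours in this order overlapped. In control MuSCs at 3 DPI the first were Cxcl2 at 516 ± 146 and Ccl3 at 290.5 ± 109.8 TPM, followed by Cxcl14, Ccl6, Ccl2 and Cxcl16 at means of 134 to 153 TPM with SDs of 17.2 to 89.9. In cKO MuSCs at 3 DPI, Cxcl2 was at 538 ± 252 and Ccl3 at 324 ± 112 TPM, and Cxcl12, Cxcl14, Cxcl1 and Ccl6 followed at 139 to 153 TPM.

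Comparison of 3 DPI with uninjured muscle asked how the chemokine genes of sorted MuSCs responded to injury. In control MuSCs, 11 of the 20 chemokine genes that passed the filter on low counts were called higher and 1 was called lower, at an adjusted p under 0.02 and a fold change over 1.5 in edgeR's quasi-likelihood test. Over all 15356 genes tested, 10.8% were called higher and 9.46% lower. In cKO MuSCs, 6 of 15 tested chemokine genes were called higher and 0 lower, where 2.43% and 1.61% of 14578 genes were called. Without cKO 3 DPI replicate 3 the count higher was 10 of 20 tested, where 5.16% of 15547 genes were called higher, so calls rose over all genes too. The count was 2 without cKO 3 DPI replicate 1, and 3 without cKO 3 DPI replicate 2 or 4 or cKO uninjured replicate 3. Of these fits, the share over all genes is given only for that without cKO 3 DPI replicate 3. Without overlap between the 4 libraries of each state, 11 of the 20 were higher and 0 lower in control (12.3% and 11.6% of all genes), and 9 of the 15 were higher and 1 lower in cKO MuSCs (5.82% and 8.29%). The median log2 fold change was 1.91 over the 20 members in control and 2.32 over the 15 in cKO MuSCs, and 0.07 and 0.01 over all genes tested. Members that passed the filter only through their level at 3 DPI had to differ, so these counts and medians do not describe all 38. Because whole libraries were measured, a change in the kinds of cells sorted and a change in RNA per cell cannot be told apart. The sources do not state which libraries came from separate mice, so p-values measure the spread between libraries.

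Among ligands of CXCR2, the receptor through which neutrophils are attracted, Cxcl2 rose the most and Cxcl1 was not called. Cxcl2 was at 7.14, 0, 2.27 and 0.943 CPM in the 4 uninjured control libraries (in the order of their replicate numbers, as in all lists below) and at 138, 235, 337 and 228 CPM in the control 3 DPI libraries. In cKO libraries, Cxcl2 was at 10.6, 5.11, 2.85 and 0 CPM uninjured and 315, 155, 71.2 and 263 CPM at 3 DPI. Every 3 DPI library was above every uninjured library, with log2 fold changes of 6.43 ± 0.41 (SE, adjusted p = 2.63e-13) in control and 5.35 ± 0.64 (adjusted p = 0.000128) in cKO MuSCs. Cxcl1, the neighbouring gene at chr5:90891241-90893115, was already present without injury, at 80.4, 42.2, 26.1 and 34.0 CPM in control and 8.27, 58.2, 34.2 and 18.9 CPM in cKO libraries. At 3 DPI it was at 42.9, 47.5, 30.3 and 28.9 CPM in control and 92.6, 33.2, 29.6 and 27.8 CPM in cKO libraries. The groups overlapped in all comparisons, and the log2 fold changes with injury were -0.28 ± 0.32 in control (adjusted p = 0.603) and 0.62 ± 0.59 in cKO MuSCs (adjusted p = 0.702). The other CXCR2 ligands of the cluster, Cxcl3 and Cxcl5, were above background in no group, with at most 12 and 35 counts in a library. The upstream sequences of Cxcl1 and Cxcl2 shown above carry the same κB letters.

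Ccl2 and Ccl7 are ligands of CCR2, which draws monocytes from the blood, and lie next to each other at chr11:82035571-82037453 and chr11:82045712-82047525. Ccl2 was at 0.893, 0.897, 0 and 3.77 CPM in uninjured control and 19.2, 39.8, 58.5 and 68.8 CPM in control 3 DPI libraries, a log2 fold change of 4.93 ± 0.56 (SE, adjusted p = 1.14e-09). In cKO libraries Ccl2 was at 1.18, 1.02, 5.7 and 0 CPM uninjured and 47.4, 46.0, 0 and 32.0 CPM at 3 DPI. Of the cKO 3 DPI libraries, 3 were above all uninjured ones and replicate 3 had no count, which allows up to 3.29 CPM. Ccl2 did not pass the filter in that comparison, and it was called higher when replicate 3 was left out or all 16 libraries were fitted together. Ccl7 was at 3.57, 2.69, 0 and 8.49 CPM in uninjured control and 11.8, 27.2, 24.2 and 19.5 CPM in control 3 DPI libraries (2.45 ± 0.60, adjusted p = 0.00148). This call was lost with all 16 libraries in 1 fit (adjusted p = 0.0497) and with the second deposited table, in which counts are rescaled for length (the scaled count table, adjusted p = 0.0228). In cKO libraries Ccl7 was at 1.18, 0, 0 and 6.74 CPM uninjured and 27.1, 24.6, 13.1 and 33.1 CPM at 3 DPI, again with no overlap. Its log2 fold change was 3.62 ± 1.01 there and was not called (adjusted p = 0.0517), but it was called without cKO 3 DPI replicate 3 (adjusted p = 0.00177), by limma's robust fit (adjusted p = 0.00508) and with all 16 libraries in 1 fit (adjusted p = 0.00636).

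Ccl3, Ccl4, Ccl6 and Ccl9 lie within the same stretch of chromosome 11 as Ccl5, and encode chemokines that attract monocytes and macrophages. Ccl3 was at 1.79, 0.897, 9.07 and 1.89 CPM in uninjured control and 97.6, 48.5, 84.8 and 136 CPM in control 3 DPI libraries. In cKO libraries Ccl3 was at 0, 4.08, 1.43 and 4.04 CPM uninjured and 129.8, 84.5, 38.3 and 87.6 CPM at 3 DPI. Ccl3 rose without overlap in both genotypes, by 4.81 ± 0.44 (SE, adjusted p = 2.52e-11) and 5.07 ± 0.66 (adjusted p = 0.000261) on the log2 scale. Ccl6 was at 0, 1.79, 9.07 and 0.943 CPM in uninjured control, 15.4, 4.08, 11.4 and 0 in uninjured cKO, 54.7, 143, 82.8 and 79.8 in control 3 DPI and 96.0, 55.6, 63.5 and 56.6 in cKO 3 DPI libraries. Ccl9 was at 8.04, 1.79, 14.7 and 3.77, at 11.8, 11.2, 22.8 and 10.8, at 93.2, 106, 131 and 138 and at 147, 53.5, 56.9 and 94.0 CPM in the same order of groups. For both genes, no 3 DPI library overlapped with an uninjured library of its genotype. Ccl6 rose by 5.02 ± 0.50 (adjusted p = 3.08e-09) in control and 3.15 ± 0.68 (adjusted p = 0.012) in cKO MuSCs, and Ccl9 by 4.09 ± 0.35 (adjusted p = 6.46e-13) and 2.65 ± 0.46 (adjusted p = 0.00243).

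Ccl4 was at 1.79, 0, 7.94 and 1.89 CPM in uninjured control and 19.2, 34.9, 21.2 and 28.9 CPM in control 3 DPI libraries, a log2 fold change of 3.21 ± 0.61 (SE, adjusted p = 4.6e-05), which was not called with all 16 libraries in 1 fit (adjusted p = 0.0257). In cKO libraries Ccl4 was at 3.54, 0, 5.7 and 1.35 CPM uninjured and 16.9, 21.4, 0 and 16.0 CPM at 3 DPI, where replicate 3 had no count and the gene did not pass the filter. Ccl5, which attracts T cells and monocytes, was above background in no group, with at most 9 counts in a library. In cKO MuSCs the calls of Ccl6 and Ccl9 changed with single libraries left out. Without cKO 3 DPI replicate 1, the adjusted p was 0.0561 for Ccl6 and 0.021 for Ccl9, and Ccl6 was also not called without cKO 3 DPI replicate 2 or 4 or cKO uninjured replicate 2 or 3 (adjusted p = 0.0264 to 0.0967 over the alternatives in which it was lost).

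Ligands of CXCR3, a receptor of activated T cells, are known as interferon-γ targets, and Cxcl9, Cxcl10 and Cxcl11 lie together on chromosome 5. Cxcl10 was at 0, 4.49, 0 and 11.3 CPM in uninjured control and 31.1, 46.5, 33.3 and 28.0 CPM in control 3 DPI libraries, a log2 fold change of 3.09 ± 0.58 (SE, adjusted p = 8.8e-05), which was not called with the scaled count table (adjusted p = 0.0226). In cKO libraries Cxcl10 was at 8.27, 4.08, 7.13 and 2.7 CPM uninjured and 38.4, 14.98, 15.3 and 42.7 CPM at 3 DPI. These did not overlap, but the log2 fold change of 2.32 ± 0.69 was not called (adjusted p = 0.0709), except without cKO 3 DPI replicate 3 (adjusted p = 0.00511). Cxcl9 was at 8.04, 12.6, 3.4 and 12.3 CPM in uninjured control and 19.2, 26.2, 18.2 and 30.6 CPM in control 3 DPI libraries. These did not overlap, with a log2 fold change of 1.37 ± 0.46 that missed the threshold of 0.02 (adjusted p = 0.0222). In cKO libraries Cxcl9 was at 10.6, 3.06, 7.13 and 6.74 CPM uninjured and 4.52, 9.63, 2.19 and 11.8 CPM at 3 DPI, with overlap and too few counts to be tested. Cxcl11, annotated as a polymorphic pseudogene, had at most 8 counts in a library.

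Cxcl12, the ligand of CXCR4 and a homeostatic chemokine known for retaining blood stem cells in bone marrow, and Cxcl14, another homeostatic chemokine, were above background in every group. Cxcl12 was at 111, 73.6, 63.5 and 90.6 CPM in uninjured control, 72.1, 124, 57.0 and 156 in uninjured cKO, 93.2, 156, 132 and 239 in control 3 DPI and 137, 128, 197 and 151 in cKO 3 DPI libraries. The uninjured and 3 DPI libraries overlapped in both genotypes. Cxcl12 was called higher in control MuSCs (0.89 ± 0.23 SE, adjusted p = 0.0024), and not without control 3 DPI replicate 4 (adjusted p = 0.0557) or control uninjured replicate 2 (adjusted p = 0.0238). It was also not called by limma's robust fit (adjusted p = 0.0472), with all 16 libraries in 1 fit (adjusted p = 0.0842) or with the scaled count table (adjusted p = 0.0278). In cKO MuSCs its log2 fold change was 0.64 ± 0.33 (adjusted p = 0.389). Cxcl14 was at 23.2, 20.6, 4.54 and 34.9 CPM in uninjured control, 23.6, 50.04, 27.1 and 9.44 in uninjured cKO, 93.2, 103, 50.5 and 235 in control 3 DPI and 77.9, 52.4, 117 and 102 in cKO 3 DPI libraries. Its 3 DPI libraries were above all uninjured libraries of the same genotype. The log2 fold change was 2.52 ± 0.59 (adjusted p = 0.0154) in control and 1.70 ± 0.47 (adjusted p = 0.0515, not called) in cKO MuSCs. The control call was lost without control 3 DPI replicate 1 or 2 or control uninjured replicate 1 or 2 (adjusted p = 0.0267, 0.0269, 0.067 and 0.0731), and the gene was called in cKO MuSCs without cKO 3 DPI replicate 3 (adjusted p = 0.0114) and by DESeq2 (1.71, adjusted p = 0.00827). The 12 fibroadipogenic markers, stromal genes of muscle, summed to 6687 to 10270 CPM in uninjured control, 2380 to 3809 in uninjured cKO, 5055 to 7580 in control 3 DPI and 3638 to 7720 in cKO 3 DPI libraries, and their part in the levels of Cxcl12 and Cxcl14 was not tested. The sort discarded cells with Sca1, the surface protein by which fibroadipogenic cells are usually isolated. Ly6a, which encodes Sca1, was at 9.03 ± 3.53 CPM in uninjured and 33.9 ± 6.85 in 3 DPI control libraries (mean ± SD, n = 4) and was called higher (1.92 ± 0.42 SE, adjusted p = 0.000335). Its uninjured mean was below the background limit of every uninjured control library (10.77 to 17.15 CPM), and its 3 DPI mean was above that of every control 3 DPI library (11.1 to 14.98 CPM). In control MuSCs 5 other fibroadipogenic markers (Pdgfra, Dcn, Lum, Col1a1 and Cd248) also rose with injury and 3 (Col3a1, Dpt and Gsn) fell. Over all genes, 10.8% were called higher and 9.46% lower. The median log2 fold change of the 12 markers was 1.51, although their summed CPM did not rise.

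Of the 2 transmembrane chemokines, Cxcl16 rose with injury and Cx3cl1 was not called. Cxcl16, the ligand of CXCR6 at chr11:70453983-70459984, was at 17.0, 4.49, 10.2 and 17.0 CPM in uninjured control and 127, 160.0, 125 and 151 CPM in control 3 DPI libraries. In cKO libraries Cxcl16 was at 9.45, 27.6, 4.28 and 10.8 CPM uninjured and 92.6, 74.9, 52.6 and 64.1 CPM at 3 DPI. It rose without overlap in both, by 3.53 ± 0.29 (SE, adjusted p = 1.71e-13) in control and 2.44 ± 0.52 (adjusted p = 0.0111) on the log2 scale in cKO MuSCs. The cKO call was lost without cKO 3 DPI replicate 1, 2 or 4 or cKO uninjured replicate 1, 3 or 4 (adjusted p = 0.028 to 0.0572). Cx3cl1, or fractalkine, the ligand of CX3CR1, was above background in every group except cKO at 3 DPI. It was at 25.9, 21.5, 24.9 and 40.6 CPM in uninjured control and 20.7, 30.1, 18.2 and 24.6 CPM in control 3 DPI libraries. In cKO libraries it was at 31.9, 21.4, 18.5 and 41.8 CPM uninjured and 9.03, 17.1, 3.29 and 17.1 CPM at 3 DPI, which did not overlap, with a log2 fold change of -1.25 ± 0.63 (adjusted p = 0.366).

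Ligands of CCR7, which guides lymphocytes and dendritic cells to lymph nodes, had calls that changed with single libraries. Ccl19 was at 8.93, 26.9, 31.8 and 25.5 CPM in uninjured control and 10.3, 10.7, 8.07 and 2.55 CPM in control 3 DPI libraries, and was called lower (-1.57 ± 0.51 SE, adjusted p = 0.0179) although the groups overlapped. The call was lost without any of control uninjured replicates 2, 3 and 4 or control 3 DPI replicates 1 to 4, with adjusted p from 0.0233 to 0.084. In cKO libraries Ccl19 was at 0, 4.08, 15.7 and 22.9 CPM uninjured and 13.6, 10.7, 0 and 6.41 CPM at 3 DPI and had too few counts to be tested. Ccl21a was at 0, 0, 0 and 2.7 CPM in uninjured cKO and 12.4, 36.4, 23.0 and 21.4 CPM in cKO 3 DPI libraries and was called higher (4.97 ± 1.09, adjusted p = 0.013), but was above background in no group. The call was lost without cKO 3 DPI replicate 1 or cKO uninjured replicate 1, 2 or 3 (adjusted p = 0.0299, 0.0597, 0.065 and 0.0605). Ccl21a was also not called without cKO 3 DPI replicate 2 or 4, where no value was obtained for it. In control libraries Ccl21a was at 0, 2.69, 17.0 and 1.89 CPM uninjured and 4.44, 0, 17.2 and 3.4 CPM at 3 DPI. Ccl21a, Ccl21b and Ccl21c are near-identical copies between which the counting could split reads. With Ccl21a and Ccl21b summed, a step chosen after the data were seen, the log2 fold change in cKO MuSCs was 1.16 ± 0.60 and not called (adjusted p = 0.376).

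**Figure D2:**
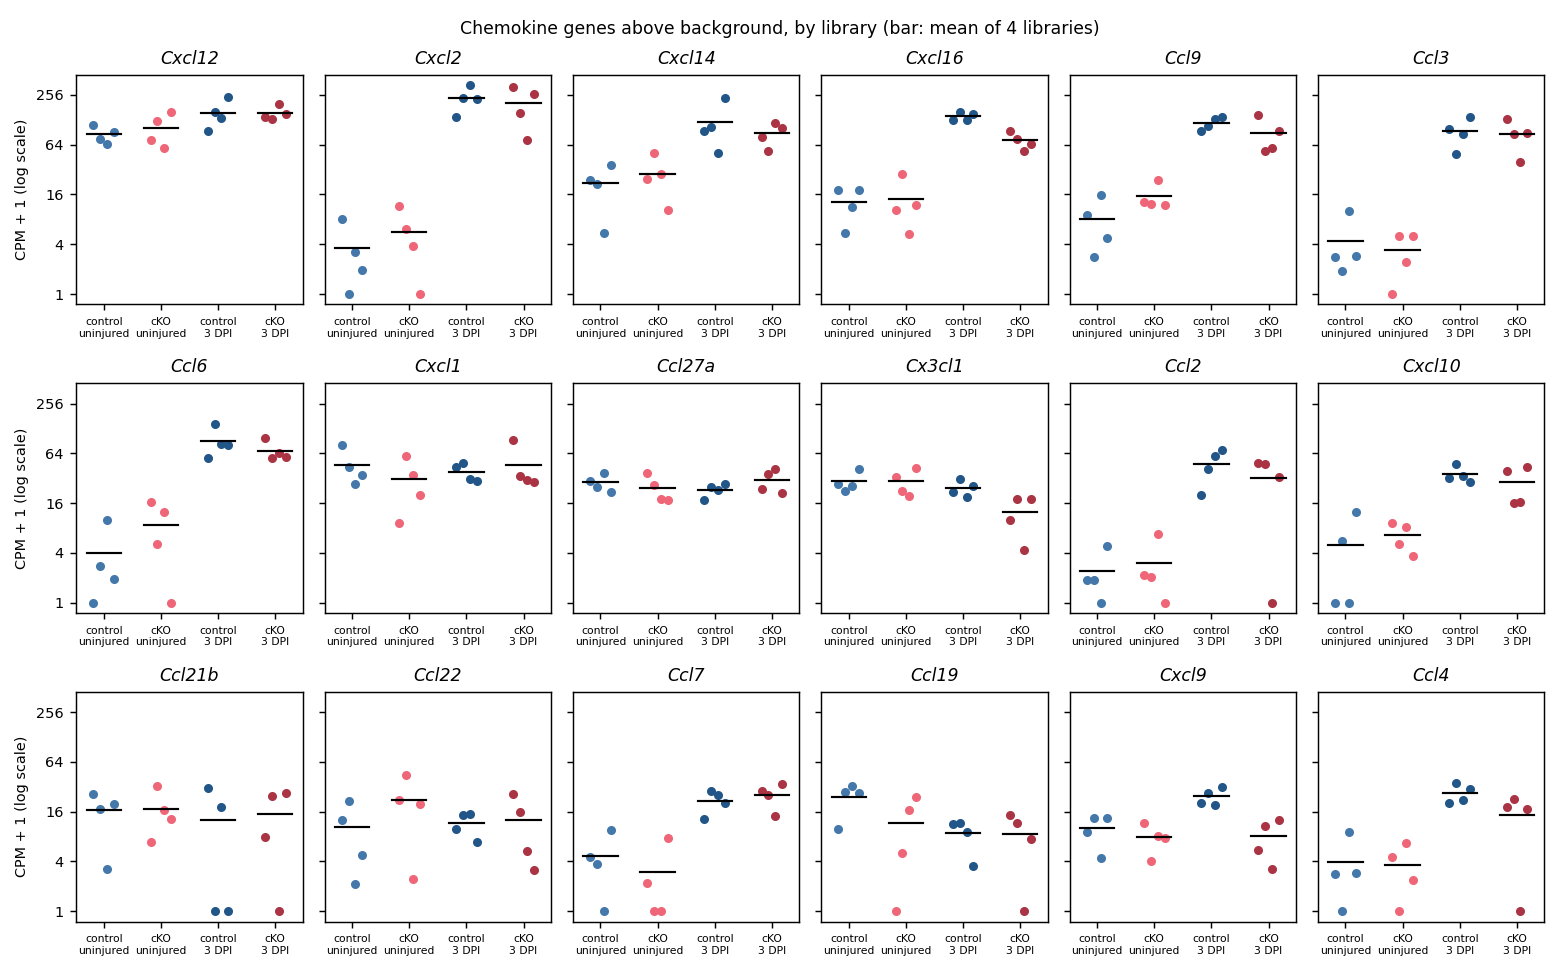
CPM plus 1 on a log scale for the 18 chemokine genes above background in at least 1 group, with 1 point per library (replicates 1 to 4 from left to right in each group) and a bar at the mean of 4 libraries. Cxcl2, Ccl3, Ccl6, Ccl9 and Cxcl16 are higher in all 3 DPI libraries than in uninjured libraries of the same genotype, and Cxcl1 and Ccl27a overlap between all groups.

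Of the remaining genes above background, none was called with injury or with genotype. Ccl27a, a CCR10 ligand known from skin, was at 20.8 to 36.3 CPM in uninjured control, 16.2 to 35.5 in uninjured cKO, 16.3 to 26.3 in control 3 DPI and 20.3 to 40.5 in cKO 3 DPI libraries, and its near-identical copy Ccl27b had at most 8 counts. Ccl21b was at 2.27 to 25.0, 5.91 to 31.7, 0 to 29.6 and 0 to 25.6 CPM in the same order. Ccl22, a CCR4 ligand made by macrophages and dendritic cells, was at 1.13 to 20.6, 1.43 to 43.9, 5.94 to 14.1 and 2.14 to 24.8 CPM. The highest count of the other 20 genes in any library was 35. Eosinophil-attracting ligands of CCR3 (Ccl11, Ccl24 and Ccl26) had at most 24, 26 and 4 counts, and Ccl12 and Ccl8 at most 19 and 31. Ccl28 and Ccl25, ligands known from mucosal tissue, had at most 26 and 12 counts. Ccl1, Ccl17, Ccl20, Cxcl13, Cxcl15 and Cxcl17 had at most 13, 4, 8, 10, 10 and 7. Ccl21c had no count in any library, which allows up to 2.55 to 4.44 CPM depending on the library, and such limits cover counting error only.

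**Figure D3:**
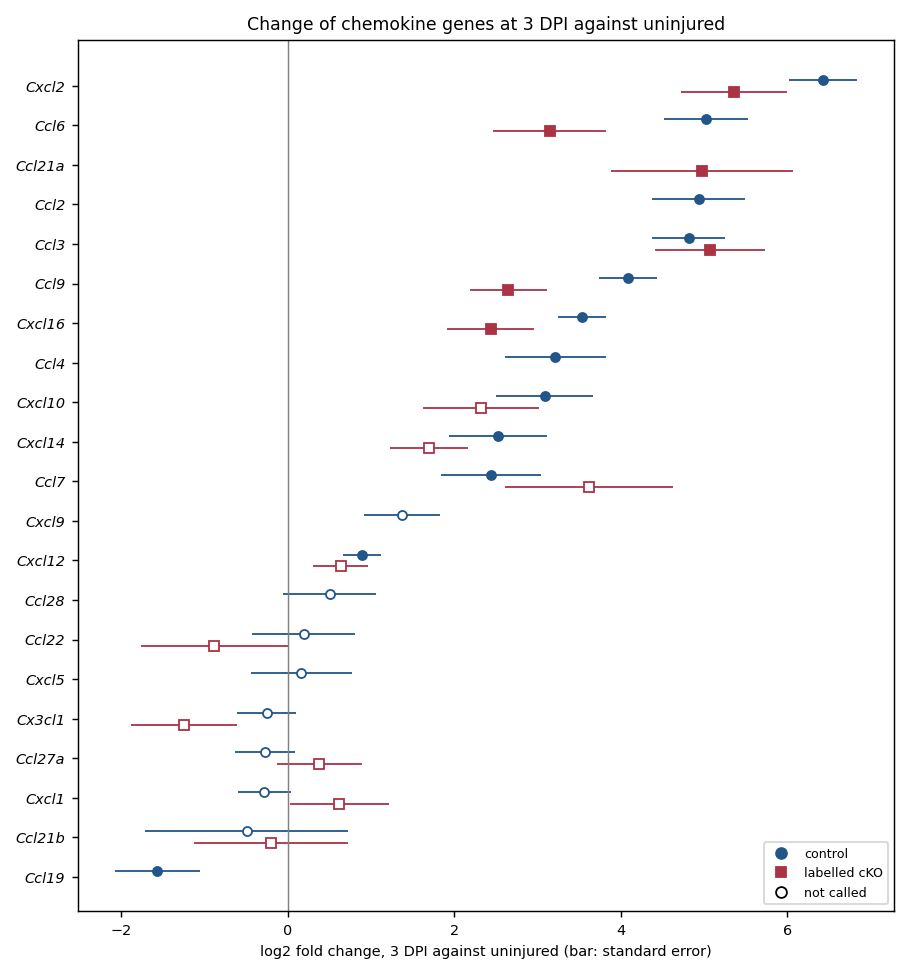
Log2 fold change at 3 DPI against uninjured muscle, with standard error, in control (circles) and cKO (squares) MuSCs for the 21 chemokine genes tested in either. Filled symbols are called at an adjusted p under 0.02 and a fold change over 1.5. Every symbol from Cxcl2 down to Cxcl12 lies right of 0, and a genotype in which a gene was not tested has no symbol.

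Whether the response to injury differed between genotypes was tested as the interaction over all 16 libraries. No chemokine gene of 22 tested was called, and 0.00% of 16822 genes were called higher and 0.0178% lower. At an unadjusted p under 0.05, 3 chemokine genes stood out, Ccl21a and Cxcl5 on the higher side (3.57% of all genes) and Ccl9 on the lower side (2.17% of all genes). The interaction of Ccl9 was -1.30 ± 0.63 on the log2 scale (SE, adjusted p = 0.862). That of Ccl21a was 4.84 ± 1.67 (adjusted p = 0.638) and Cxcl5, above background in no group, was at 3.28 ± 1.26 (adjusted p = 0.73). DESeq2 also called none of the 22, and limma's robust fit called Ccl21a alone (adjusted p = 0.000485). The median interaction over the 22 genes was -0.45 and over all genes 0.04. Genes called with injury in control but not in cKO MuSCs by edgeR (Ccl2, Ccl4, Ccl7, Ccl19, Cxcl10, Cxcl12 and Cxcl14) were not shown to respond differently.

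Comparison of the genotypes in uninjured muscle asked whether chemokine genes of MuSCs depend on TRF2 at rest. None of the 10 chemokine genes tested was called by edgeR, where 0.584% of 14048 genes were called higher in cKO and 2.63% lower. At an unadjusted p under 0.05, Ccl22 alone was higher (8.98% of all genes) and none was lower (10.5% of all genes), and DESeq2 and limma's robust fit also called none. Ccl22 was at 11.6, 20.6, 1.13 and 3.77 CPM in control and 21.3, 43.9, 1.43 and 18.9 CPM in cKO libraries, which overlapped (1.31 ± 0.64 SE, adjusted p = 0.256). Ccl9 differed by 1.10 ± 0.65 (adjusted p = 0.346), Ccl19 by -1.06 ± 0.60 (adjusted p = 0.332) and Cxcl14 by 0.53 ± 0.45 (adjusted p = 0.54). Cxcl12, the most abundant member in CPM, differed by 0.39 ± 0.25 (adjusted p = 0.407), Cxcl1 by -0.47 ± 0.40 (adjusted p = 0.541) and Cx3cl1 by 0.12 ± 0.37 (adjusted p = 0.891). All 10 overlapped between genotypes. The median log2 fold change over the 10 was 0.22, against 0.06 over all genes.

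At 3 DPI, 20 chemokine genes were tested between the libraries labelled cKO and control, and none was called by edgeR, DESeq2 or limma's robust fit. Over all 14559 genes, 0.00% were called in either direction. At an unadjusted p under 0.05, Cxcl16 and Cxcl9 were lower (3.58% of all genes) and Ccl21a was higher (5.78% of all genes). Ccl21a differed by 2.07 ± 0.88 (SE, adjusted p = 0.52), and its sum with Ccl21b by 1.24 ± 0.90 (adjusted p = 0.684). Cxcl16 was at 125 to 160.0 CPM in control and 52.6 to 92.6 CPM in cKO libraries, a log2 fold change of -0.83 ± 0.25 (SE, adjusted p = 0.452). Cxcl9 was at 18.2 to 30.6 CPM in control and 2.19 to 11.8 CPM in cKO libraries (-1.57 ± 0.64, adjusted p = 0.514). Cx3cl1 was at 18.2 to 30.1 and 3.29 to 17.1 CPM (-0.85 ± 0.60, adjusted p = 0.676). For these 3 genes every control library was above every cKO library. Any gene without overlap has p = 0.0286 in an exact two-sided permutation test, the smallest that 4 against 4 libraries allow. This unadjusted p therefore adds nothing to the lack of overlap by which the genes were picked. Over all genes, 6.48% were lower and 2.17% higher in cKO without overlap, against 3 and 0 of the 20 chemokine genes. Of the 16 macrophage markers, 3 were also lower in cKO without overlap (Ptprc, Csf1r and Fcgr1), and the median log2 fold change of the 16 was -0.51, or -0.29 without cKO 3 DPI replicate 3. Of 10 MuSC markers, 6 were lower without overlap (Pax7, Myf5, Itga7, Cdh15, Myod1 and Des) and 0 higher. Of 16 interferon-γ pathway genes, 2 were lower (Irf8 and Gbp7) and 0 higher. In the other lists described below, Ccr4, Cxcr3 and the tenocyte marker Mkx were higher without overlap. Ccr2, Ndst1, Sdc2, the fibroadipogenic marker Lum and the mural marker Notch3 were lower. The part of any of these in the lower levels of Cxcl16, Cxcl9 and Cx3cl1 was not tested.

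Ccl3 and Cxcl2, the 2 most abundant chemokine genes per length at 3 DPI, differed between genotypes by 0.04 ± 0.38 and -0.08 ± 0.38, within their SEs. Ccl2 differed by -0.43 ± 0.75, Ccl4 by -0.80 ± 0.76, Ccl6 by -0.25 ± 0.33, Ccl7 by 0.39 ± 0.50 and Ccl9 by -0.27 ± 0.32, with adjusted p from 0.758 to 0.883. The median over the 20 was -0.12 and over all genes 0.001. Replicates 1 and 2 of both genotypes share the first part of their sample code, the meaning of which is not given in the sources used here, while all other codes belong to 1 genotype each. Within these 4 libraries Cxcl16 differed by -0.73 (adjusted p = 0.845) and Cxcl9 by -1.60 (adjusted p = 0.845), and no chemokine gene was called. Without cKO 3 DPI replicate 3, the values were -0.75 (adjusted p = 0.185) for Cxcl16 and -1.31 (adjusted p = 0.312) for Cxcl9.

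**Figure D4:**
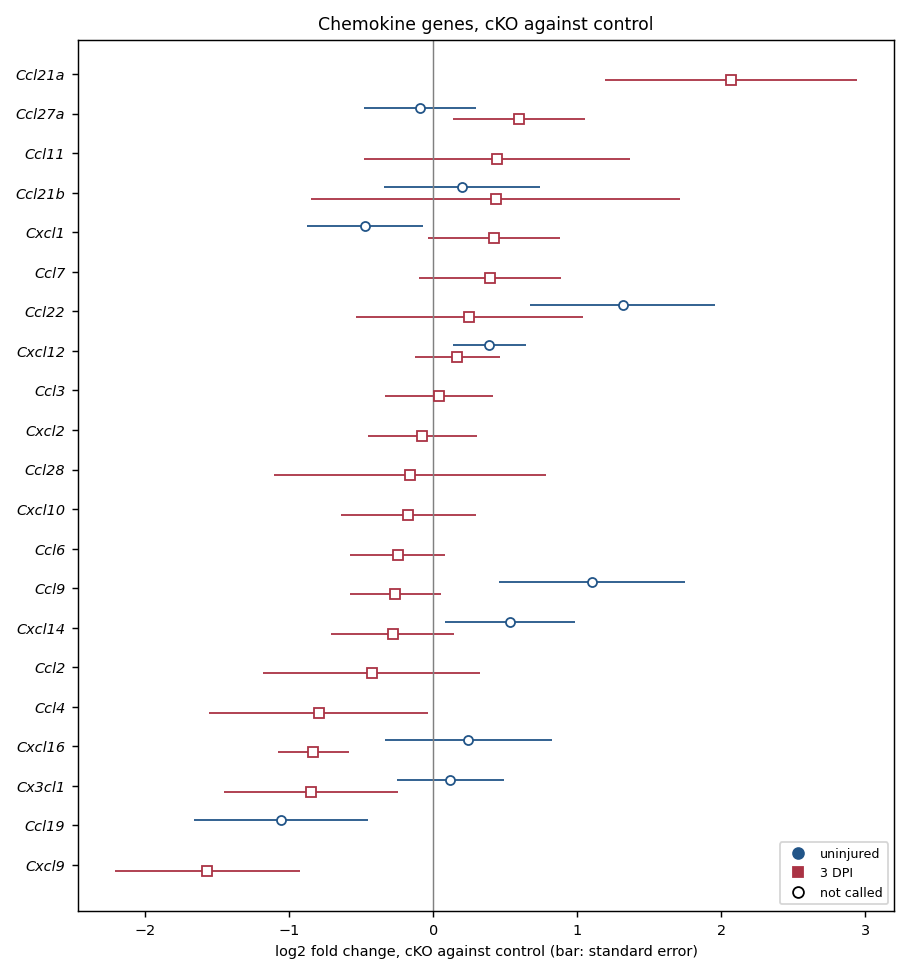
Log2 fold change of cKO against control, with standard error, in uninjured MuSCs (circles) and at 3 DPI (squares) for the 21 chemokine genes tested in either state. All symbols are open because none was called, and Cxcl16, Cx3cl1 and Cxcl9 lie left of 0 at 3 DPI at -0.83, -0.85 and -1.57.

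Receptors were examined as the partners of the ligands. Of 19 chemokine receptor genes, 5 of 10 tested rose with injury in control MuSCs, among them Ccr2, Ccr1, Cx3cr1 and Cxcr4, and none fell (10.8% of all genes were called higher). Ccr2, the receptor for Ccl2 and Ccl7, was at 9.15 ± 7.22 CPM uninjured and 74.6 ± 12.3 at 3 DPI (mean ± SD, n = 4), with a log2 fold change of 3.07 ± 0.38 (SE, adjusted p = 8.67e-09). Ccr1 changed by 2.97 ± 0.54 (adjusted p = 2.39e-05), Cx3cr1 by 2.20 ± 0.29 (adjusted p = 5.91e-08) and Cxcr4 by 0.84 ± 0.20 (adjusted p = 0.00125). In cKO MuSCs none of these 4 receptors was called with all libraries, Ccr2 and Cxcr4 were called higher without cKO 3 DPI replicate 3 (5.16% of all genes were then called higher and 3.30% lower), and the interaction called none of 15. Cxcr2, the receptor for Cxcl1 and Cxcl2, had mean levels of 4.37 to 21.5 CPM in the 4 groups.

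In uninjured MuSCs both receptors of Cxcl12 were lower in cKO, although Cxcl12 was not called. Cxcr4, the signalling receptor, was at 102 ± 16.2 CPM in control and 43.3 ± 6.35 in cKO MuSCs, a log2 fold change of -1.12 ± 0.25 (SE, adjusted p = 0.00356). Ackr3, an atypical receptor that takes up Cxcl12 without G protein signalling, was at 104 ± 23.6 and 46.3 ± 12.2 CPM (-1.06 ± 0.26, adjusted p = 0.00752). They were the only 2 called of the 13 tested genes of the receptor and atypical receptor lists, where 0.584% of all genes were called higher and 2.63% lower. At 3 DPI neither was called, at -0.84 ± 0.31 (adjusted p = 0.473) for Cxcr4 and 0.31 ± 0.41 (adjusted p = 0.837) for Ackr3. In that comparison 0.00% of all genes were called in either direction, so the lack of a call does not show that a difference was gone. With injury Ackr3 fell in control MuSCs (-1.88 ± 0.26, adjusted p = 1.13e-07) and Ccrl2, an atypical receptor that binds the chemoattractant chemerin, rose in control (3.53 ± 0.29, adjusted p = 2.85e-13) and cKO MuSCs (3.32 ± 0.61, adjusted p = 0.00394).

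Genes that process or bind chemokines were mixed. Of 13, all tested, 4 rose (Adam10, Adam17, Mmp14 and Sdc3) and 4 fell (Mmp2, Ndst1, Sdc2 and Sdc4) with injury in control MuSCs, where 10.8% of all genes were called higher and 9.46% lower. Adam10 (0.69 ± 0.22, adjusted p = 0.0141) and Adam17 (1.38 ± 0.22, adjusted p = 2.31e-06) encode the proteases that shed Cx3cl1 and Cxcl16. In cKO MuSCs Sdc3 rose and Mmp2 and Sdc4 fell, where 2.43% of all genes were called higher and 1.61% lower. Between genotypes in uninjured muscle, Mmp2, a protease that can cleave Cxcl12, was higher in cKO (0.88 ± 0.20, adjusted p = 0.00309) and Sdc4, a heparan sulphate proteoglycan and also a MuSC marker, was lower (-0.88 ± 0.20, adjusted p = 0.00309). Of all genes, 0.584% were called higher and 2.63% lower in that comparison. None of the 13 was called between genotypes at 3 DPI, where 0.00% of all genes were called in either direction.

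Of 26 genes of the nuclear factor κB pathway and its targets, 8 of 24 tested rose with injury in control MuSCs (Rel, Nfkbia, Tnfaip3, Tnf, Il1b, Icam1, Cd40 and Tnfrsf1b) and 2 of 24 in cKO MuSCs (Tnfaip3 and Tnfrsf1b), with none lower. Without cKO 3 DPI replicate 3, Nfkbia, Tnf and Icam1 also rose in cKO MuSCs, 5 in all, and Nfkb2 fell. In that fit 5.16% of all genes were called higher and 3.30% lower. With all libraries, 10.8% of all genes were called higher in control and 2.43% in cKO MuSCs, so fewer calls were made in cKO MuSCs in general, and the difference in counts between the genotypes is not a result about these lists. Tnfaip3, a feedback inhibitor, rose by 2.77 ± 0.22 (SE, adjusted p = 1.25e-13) and 2.46 ± 0.31 (adjusted p = 0.000177). The cytokine Tnf was at 8.03 ± 7.44 CPM uninjured and 57.8 ± 13.2 at 3 DPI in control MuSCs (mean ± SD, n = 4). Of 16 genes of the interferon-γ pathway, 7 of 15 tested rose in control MuSCs (10.8% of all genes), among them Ifngr2, Irf8, Gbp3, Ciita, Cd74 and Iigp1. In cKO MuSCs 2 of 15 rose (Irf8 and Cd74, 2.43% of all genes), or 4 of 15 without cKO 3 DPI replicate 3, among them Ifngr2 (5.16% of all genes). Ifng itself averaged 0.943 to 5.14 CPM over the 4 groups. Between genotypes, Ciita, the regulator of MHC class II genes, was higher in uninjured cKO (1.41 ± 0.36, adjusted p = 0.0113), and no other gene of these lists was called. Of all genes, 0.584% were called higher and 2.63% lower in uninjured cKO, and 0.00% in either direction at 3 DPI. Of 3 chemokine genes named outside the Ccl and Cxcl series (Xcl1, Pf4 and Ppbp), Pf4, a platelet and macrophage chemokine, rose in control MuSCs by 5.20 ± 0.42 (adjusted p = 3.48e-13), from 2.76 ± 2.74 to 100.5 ± 29.1 CPM, and in cKO MuSCs it was tested, and called higher, only without cKO 3 DPI replicate 3.

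Markers of macrophages moved with the injury-responsive chemokine genes. The sort kept cells negative for CD45, CD31, CD11b and Sca1, yet Ptprc, which encodes CD45, was at 13.2 ± 3.08 CPM in uninjured and 227 ± 44.6 in 3 DPI control libraries, and Itgam, which encodes CD11b, was at 15.2 ± 12.8 and 395 ± 63.8 CPM (mean ± SD, n = 4). Both uninjured means lay within the range of the background limits of those libraries (10.77 to 17.15 CPM), and both 3 DPI means above the limits at 3 DPI (11.1 to 14.98 CPM). The 16 macrophage markers summed to 117 to 209.8 CPM in uninjured control, 199 to 238 in uninjured cKO, 6890 to 9641 in control 3 DPI and 2837 to 8298 in cKO 3 DPI libraries, and no marker was at 0 in all libraries of a group. All 16 rose with injury in control MuSCs (10.8% of all genes were called higher), and 14 in cKO MuSCs (2.43%), where Adgre1 and Mrc1 were called only without cKO 3 DPI replicate 3 (5.16%). None was called between genotypes, of 9 tested in uninjured muscle and 16 at 3 DPI. Of all genes, 0.584% were called higher and 2.63% lower in uninjured cKO, and 0.00% in either direction at 3 DPI. The 10 MuSC markers summed to 4000 to 5944, 2290 to 3385, 1031 to 1635 and 469 to 630.2 CPM in the 4 groups, with 9 lower with injury in control (9.46% of all genes), 8 in cKO MuSCs (1.61%), and 6 lower in uninjured cKO than control MuSCs (2.63%). Without cKO 3 DPI replicate 3, 9 were lower with injury in cKO MuSCs (3.30% of all genes), and 4 (Itga7, Cdh15, Chodl and Des) were lower in cKO than control at 3 DPI, where 0.0843% of all genes were called lower and 0.0194% higher. The part of macrophage RNA in the rise of Ccl2, Ccl3, Ccl4, Ccl6, Ccl7, Ccl9, Cxcl2, Cxcl10 and Cxcl16 was not tested.

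Markers of other cells were examined in the same way. The 7 neutrophil markers in the table, of 8 listed, summed to 20.4 to 46.7 CPM in uninjured control, 41.4 to 62.7 in uninjured cKO, 91.8 to 134 in control 3 DPI and 46.0 to 182 in cKO 3 DPI libraries. Csf3r was higher with injury in control MuSCs (10.8% of all genes), with no other call among the 1 to 3 tested with all libraries. Without cKO 3 DPI replicate 3, Csf3r also rose in cKO MuSCs (5.16% of all genes). The 11 lymphocyte markers summed to 58.1 to 253 CPM over the 16 libraries, and none of the 2 to 4 tested was called. Of 12 fibroadipogenic markers, 1 of 9 tested was higher and 4 lower in uninjured cKO than control (0.584% and 2.63% of all genes), 6 of 12 rose and 3 fell with injury in control (10.8% and 9.46%), and 1 of 11 rose in cKO MuSCs (2.43%), or 5 of 12 (Pdgfra, Col1a1, Col3a1, Cd248 and Fbn1) without cKO 3 DPI replicate 3 (5.16%). Of 10 endothelial markers, Tek fell with injury in control (9.46% of all genes). Of 8 mural markers, Rgs5 and Cspg4 were higher in uninjured cKO (0.584%), Acta2 and Notch3 fell with injury in control (9.46%) and Notch3 fell in cKO MuSCs (1.61%). None of the Schwann (6 listed), tenocyte (4) or erythrocyte (5) markers that passed the filter was called, which for erythrocytes was 1 gene.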

How the data were processed

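The measurement was total RNA sequencing of 16 MuSC libraries, made with the randomly primed CORALL kit after ribosomal RNA was removed. The kit adds unique molecular identifiers, and whether duplicate reads were collapsed is not given in the sources used here. Per the labels, the authors used Trim Galore 0.6.7, STAR 2.6.1d and Salmon 1.5.2 (the methods of the study name a later STAR release), with the Ensembl GRCm38 genome, and deposited estimated counts per gene, not normalized and not pooled over replicates. A second deposited table holds estimated counts rescaled from abundance per transcript length to the total of each library, from which TPM was computed. Gene positions are from GENCODE M21 and promoter sequences from RefSeq (GRCm38.p6), where 26 of 38 members matched.

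Tests were run with edgeR 4.0.16, DESeq2 1.42.0 and limma 3.58.1 under R 4.3.3. Estimated counts were rounded, filtered with filterByExpr, scaled by TMM and tested with edgeR's robust quasi-likelihood test on the 8 libraries compared (all 16 for the interaction), with Benjamini-Hochberg adjustment over all genes tested. Genes were called at an adjusted p under 0.02 and a fold change over 1.5. The SE is the log2 fold change divided by the square root of the test statistic. Single values were compared by exact two-sided permutation tests of log2(CPM + 1). Values per library are given for members called in any comparison, for the 8 most abundant above background, and for members without overlap at an unadjusted p under 0.05; Cx3cl1 and Ccl22 were added after their values were seen. The members and lists were chosen with earlier results of these data known. Lists of receptors, processing genes, pathway genes and cell type markers were described by counts, which include 2 genes not reported here by name. The script was tested on simulated data. Alternatives were limma's robust fit, DESeq2, other scalings and filters, all libraries in 1 fit, a replicate block, the second table, a looser threshold, other background limits and leaving out each library. Lists without cKO 3 DPI replicate 3 were added after the data were seen.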

Additional observations from a re-analysis of the deposited data

Results flagged for a closer look

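Of 60 groups of 4 libraries examined for the named genes, 5 held a library whose gap to the nearest other library took up most of the range of the group, where chance alone marks about 1 in 20. Ccl21a was at 17.0 CPM in uninjured control replicate 3, against 0 to 2.69 in the other 3. Ccl21a was also at 2.70 CPM in uninjured cKO replicate 4, where the other 3 had no count. Ccl3 was at 9.07 CPM in uninjured control replicate 3, against 0.897 to 1.89 in the others. Ccl9 was at 22.8 CPM in uninjured cKO replicate 3, against 10.8 to 11.8 in the others. Cxcl1 was at 92.6 CPM in cKO 3 DPI replicate 1, against 27.8 to 33.2 in the others.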

How the results depend on the processing

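The count of chemokine genes called between genotypes was 0 in both states under every alternative run, including library size alone, the scaled count table and each library left out. In control MuSCs at 3 DPI against uninjured, the count called higher fell from 11 to 1 when at least 10 counts were required in every library, which left 4 chemokine genes to test. It was 8 with all 16 libraries in 1 fit (without Ccl4, Ccl7 and Cxcl12), 9 with the scaled count table (without Ccl7, Cxcl10 and Cxcl12, with Ccl12), 10 with limma's robust fit (without Cxcl12) and with no filter (without Cxcl14), 12 with library size alone or the looser threshold (with Cxcl9), 11 with DESeq2, RLE size factors or the replicate block, and 9 to 11 with a library left out. The single lower call, Ccl19, went to 0 with library size alone, at least 10 counts, all 16 libraries in 1 fit, the replicate block and the scaled count table, and was 0 to 1 with a library left out. In cKO MuSCs the count called higher, 6, was 0 with at least 10 counts (2 genes tested), 3 with the replicate block (Ccl3, Ccl9 and Cxcl2), 3 with the scaled count table (the same 3 genes), 7 with limma's robust fit (with Ccl7), 8 with all 16 libraries in 1 fit (with Ccl2 and Ccl7), 6 with DESeq2 (with Cxcl14, and without Ccl21a, to which it gave no adjusted p), and 2 to 10 with a library left out (2 without cKO 3 DPI replicate 1, 10 without cKO 3 DPI replicate 3). The interaction count was 1 with limma's robust fit. The number above background was 30 with at least 3 counts and no percentile. Replicate numbers did not pair the libraries, since same-numbered libraries deviated with correlations of -0.11 to 0.111, so the block is given only here. Library size alone moved the median of all genes from 0.06 to 0.24 in the uninjured and from 0.001 to 0.107 in the 3 DPI genotype comparison, from 0.07 to 0.23 and 0.01 to 0.13 with injury in control and cKO, and from 0.04 to -0.12 in the interaction.

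Small differences changed sign, and the cause was not tested. Between genotypes at 3 DPI, Cxcl2 was 0.017 with library size alone, Ccl3 was -0.038 without a filter and -0.001 with all 16 libraries, and with replicates 1 and 2 alone Cxcl2 was 0.38, Ccl2 0.69 and Ccl9 0.05. With a library left out, that comparison ran from -0.35 to 0.18 for Cxcl2, -0.22 to 0.25 for Ccl3, -0.044 to 0.41 for Cxcl12, -0.44 to 0.055 for Ccl6, -0.56 to 0.22 for Cxcl14, -0.14 to 0.58 for Cxcl1 and -0.48 to 0.022 for Cxcl10. Likewise Cxcl16 ran from -0.055 to 0.50 in uninjured MuSCs, Cxcl1 from -0.50 to 0.12 with injury in control MuSCs, and in the interaction Ccl3 from -0.62 to 0.83 and Ccl2 from -1.84 to 0.21.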
